A study of Saccharomyces cerevisiae with 6 samples.

Results

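The glycogen genes of Saccharomyces cerevisiae described here are GLG1, GLG2, GSY1, GSY2, GLC3, GPH1, GDB1, GAC1, PIG1 and PIG2, which cover priming, elongation, branching and breakdown of glycogen and the targeting of the phosphatase Glc7. Their systematic names are, in this order, YKR058W, YJL137C, YFR015C, YLR258W, YEL011W, YPR160W, YPR184W, YOR178C, YLR273C and YIL045W. They were taken by name through the annotation of the array, and all 10 were found, with 1 probe set each among the 5498 probe sets (5449 genes) listed for this species. Yeast cells carried a galactose-induced plasmid and were grown in synthetic medium with galactose and without uracil. The plasmid gave either GST alone or Med3, a subunit of the Mediator tail, fused to GST (labelled GST-med3 and called Med3-GST in the study). Expression was driven by the GAL1/10 promoter of the vector pEGH, and the induction lasted 48 h. The strains for overexpression derive from BY4741, a laboratory strain of mating type a that lacks HIS3, LEU2, MET15 and URA3, and carry a tagged Med18 or Med3 at its own locus. The labels do not say which of them was used for the arrays. Both groups thus share galactose, the vector and the GST tag. In each group 3 biological replicates, lettered A to C, were hybridized to 1 Affymetrix Yeast Genome 2.0 Array apiece, and how the replicates were kept separate is not described further. The comparison asks how transcript levels change when overexpressed Med3 forms amyloid-like aggregates.

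Glycogen is a branched polymer of glucose that yeast stores when nutrients run low or the cells are stressed, and that it breaks down when it resumes growth. The glycogenins Glg1 and Glg2 prime a chain by attaching glucose to themselves, the synthases Gsy1 and Gsy2 extend it with glucose from UDP-glucose, and Glc3 adds the branches. Gph1 releases glucose 1-phosphate from the chain ends and Gdb1 removes the branches. Glycogen synthase is switched off by phosphorylation and switched on by the type 1 phosphatase Glc7, which is brought to glycogen and to the synthase by Gac1, Pig1 and Pig2. Transcription of many of these genes is known to rise with stress and on approach to stationary phase.

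Values are log2 signals as deposited, and differences are Med3-GST minus GST. The study lists larger increases for DAT1, RTA1, GAP1, MOB2 and MED3 than these values give. Its fold changes were thus not obtained from these values as they stand, and counts of 2-fold changes here need not match the study's. The median log2 signal of an array lay between 9.99 and 10.08 with GST and between 9.87 and 9.99 with Med3-GST, so that the median difference over all probe sets was -0.085 as deposited and 0.01 after each array had been centred on its median. PGD1, the array's name for MED3, was at 8.24, 8.01 and 8.07 with GST and at 11.85, 11.73 and 11.84 with Med3-GST, as the labels say. The a-cell genes MFA1, MFA2, STE2 and BAR1 had mean signals of 10.08 or more in both groups, and the alpha-factor genes MF(ALPHA)1 and MF(ALPHA)2 were at 6.90 or less. STE3 and SAG1, which belong to alpha cells, were at 8.41 and 8.76 with GST and at 7.95 and 9.13 with Med3-GST, and so moved in opposite directions. LEU2, deleted in BY4741, had a mean of 10.92 with GST and 10.48 with Med3-GST, whereas MET17 (MET15), also deleted, was at 6.37 in both. Whether the LEU2 signal comes from the strain or from the plasmid was not tested. The 95th percentile of the 1747 probe sets taken as those for Schizosaccharomyces pombe, which was not in the cultures, was 7.49 and serves as a mark of the background. The samples are bulk cultures, so that less transcript per cell and fewer cells with the transcript cannot be told apart.

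All 10 glycogen genes fell in cells with Med3-GST. Their differences ran from -0.21 for PIG1 to -1.47 for PIG2 on the log2 scale, with a median of -0.80. PIG2, GPH1, GSY2, GDB1 and GLC3 were lower by at least 2-fold, whereas GLG1 and PIG1 kept 81.3% and 86.5% of their signal with GST. None was higher, also at an unadjusted p under 0.05 in limma. The test was limma's moderated test over all 5498 probe sets (two-sided, Benjamini-Hochberg adjusted p under 0.05), in which 47.8% of all probe sets were lower and 27.1% higher. After centring, all 10 were again lower and none higher (0 also at an unadjusted p under 0.05), where 41.7% of all probe sets were lower and 43.6% higher. The decrease as such was therefore shared with almost every second probe set, and the size of the decrease was less common, since 1.2% of all probe sets were at least 2-fold lower against 5 of the 10 genes. After centring this count was 2 of 10 (PIG2 and GPH1) against 0.891% of all probe sets. In each of the 10 genes every array with Med3-GST lay below every array with GST, both as deposited and after centring. The same held for 48.4% and 42.2% of all probe sets, so that this separation is common on these arrays.

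**Figure D1:**
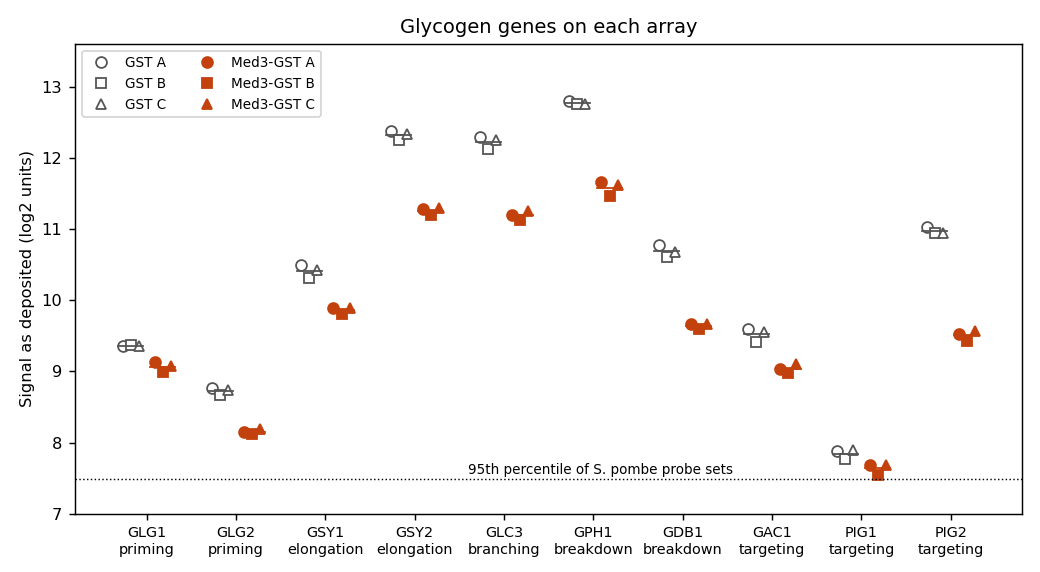
Log2 signal as deposited (vertical axis) of the 10 glycogen genes (horizontal axis, with their roles) on the 3 GST arrays (open symbols) and the 3 Med3-GST arrays (filled symbols), with a line at each group mean and a dotted line at 7.49, the 95th percentile of S. pombe probe sets. The 2 groups are apart in every gene, by the widest gap in PIG2 and by the narrowest in PIG1, whose 6 signals lie closest to the dotted line.

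The limma fit gave every probe set the same standard error of 0.050 as deposited, as the fit found no difference in spread between probe sets. Adjusted p-values of single genes are therefore given after centring, where the median standard error was 0.0243 and each gene kept a spread of its own. Replicate B was the lowest array of its group for 9 of the 10 genes with GST and for all 10 with Med3-GST, and its median over all probe sets was also the lowest of each group. After centring, replicate B was the lowest for 7 and for 2 of the genes.

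Both priming genes fell, GLG1 the least of the enzymes of synthesis. GLG1 had signals of 9.36, 9.37 and 9.35 with GST (replicates A, B and C) and of 9.14, 8.99 and 9.07 with Med3-GST. The GST arrays were nearly equal, and the highest Med3-GST array was 0.22 below the lowest of them. The difference of -0.30 became -0.20 ± 0.03 (SE) after centring (adjusted p = 5.19e-05 from limma). GLG2, which encodes the other glycogenin, was at 8.77, 8.67 and 8.74 with GST and at 8.15, 8.12 and 8.19 with Med3-GST. Its groups were well apart, with a difference of -0.57 as deposited and -0.48 ± 0.02 (SE) after centring (adjusted p = 9.43e-10 from limma).

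Both glycogen synthase genes fell, GSY2 more than GSY1. GSY2 encodes the isoform that carries most of the synthase activity in nutrient-limited cells, and its signals were 12.38, 12.26 and 12.34 with GST and 11.29, 11.20 and 11.29 with Med3-GST. The lowest GST array thus stood far above the highest Med3-GST array, and the mean signal with Med3-GST was 47.8% of that with GST. The difference of -1.07 was -0.97 ± 0.02 (SE) after centring (adjusted p = 6.68e-13 from limma). GSY1 was at 10.49, 10.32 and 10.42 with GST and at 9.88, 9.80 and 9.89 with Med3-GST. Here the groups were separated by less, with 68.3% of the GST signal left and a difference of -0.55, or -0.46 ± 0.02 (SE) after centring (adjusted p = 2.17e-09 from limma).

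GLC3, the branching enzyme, had signals of 12.29, 12.12 and 12.25 with GST and of 11.20, 11.13 and 11.26 with Med3-GST. All Med3-GST arrays lay close together and below the GST arrays, with 49.1% of the GST signal. The difference was -1.03 as deposited and -0.93 ± 0.03 (SE) after centring (adjusted p = 5.40e-12 from limma), so that GLC3 is 2-fold lower only on the values as deposited.

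The genes of breakdown fell along with those of synthesis. GPH1, glycogen phosphorylase, was at 12.80, 12.75 and 12.75 with GST and at 11.66, 11.47 and 11.62 with Med3-GST. The GST arrays hardly differed, and Med3-GST replicate B was the lowest of its group. The mean signal fell to 43.9% of that with GST, a difference of -1.19, or -1.09 ± 0.03 (SE) after centring (adjusted p = 2.03e-12 from limma). GDB1, the debranching enzyme, had signals of 10.78, 10.60 and 10.68 with GST and of 9.67, 9.59 and 9.66 with Med3-GST. These arrays were also fully separated, with a difference of -1.05 as deposited and -0.95 ± 0.02 (SE) after centring (adjusted p = 2.80e-12 from limma).

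The 3 targeting subunits of Glc7 held both ends of the range. PIG2, which tethers Glc7 to Gsy2, was at 11.03, 10.94 and 10.95 with GST and at 9.52, 9.43 and 9.57 with Med3-GST. No array came near the other group, and 36.2% of the GST signal was left. The difference was -1.47 as deposited and -1.37 ± 0.02 (SE) after centring (adjusted p = 3.99e-14 from limma). GAC1, the main targeting subunit in glycogen accumulation, was at 9.60, 9.41 and 9.56 with GST and at 9.03, 8.98 and 9.10 with Med3-GST, a difference of -0.48, or -0.39 ± 0.03 (SE) after centring (adjusted p = 4.37e-08 from limma). PIG1, which is related to GAC1, had signals of 7.88, 7.76 and 7.89 with GST and of 7.68, 7.54 and 7.69 with Med3-GST. The 2 groups were separated by only 0.077, and the 6 arrays lay just above the background mark of 7.49. Its difference was -0.21 as deposited, -0.11 ± 0.03 (SE) after centring (adjusted p = 0.00115 from limma) and -0.20 ± 0.04 (SE) when the background, taken as an array's median over the S. pombe probe sets, had been subtracted before centring. The size of this difference is therefore less certain than in the other genes.

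**Figure D2:**
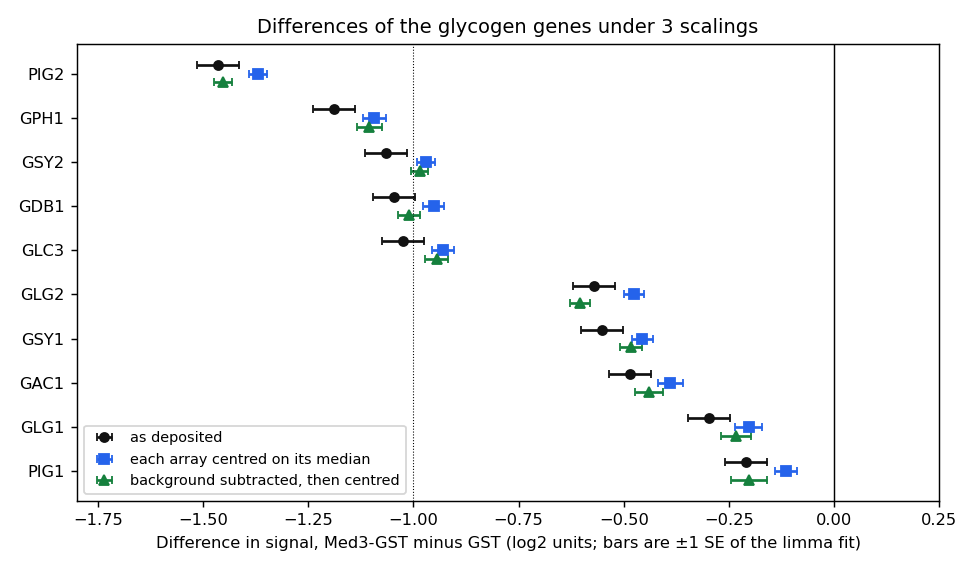
Difference in log2 signal, Med3-GST minus GST (horizontal axis), of each glycogen gene (vertical axis, in the order of the differences) as deposited, after centring each array and after background subtraction with centring; bars are ±1 SE of the limma fit and the dotted line marks a 2-fold decrease. All points lie left of 0, from -1.47 for PIG2 to -0.21 for PIG1 as deposited, and GSY2 and GLC3 lie right of the dotted line in both centred versions.

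The genes were ordered by the size of their differences, and the gaps between neighbours in this order come from the same values. GSY2, GDB1 and GLC3 followed each other at gaps of 0.019 ± 0.018 (SE) and 0.022 ± 0.026 (SE), and their changes per array overlapped. GLG2 and GSY1 were likewise not told apart (gap of 0.021 ± 0.028 SE). The widest step, between GLC3 and GLG2, was 0.45 ± 0.03 (SE). It was picked after the order was seen, which its SE does not allow for. PIG2 stood 0.28 ± 0.03 (SE) below GPH1, and GPH1 0.12 ± 0.04 (SE) below GSY2. At the other end GSY1 and GAC1 were 0.067 ± 0.023 (SE) apart, GAC1 and GLG1 0.19 ± 0.07 (SE), and GLG1 and PIG1 0.088 ± 0.053 (SE). Among all probe sets ordered from the largest decrease, PIG2 held place 23, GPH1 43, GSY2 56, GDB1 58 and GLC3 63, so that each of these was within the lowest 1.15% of 5498. GLG2, GSY1 and GAC1 were within the lowest 9.82%, whereas GLG1 at 24.9% and PIG1 at 35.0% were in the broad middle of the distribution.

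**Figure D3:**
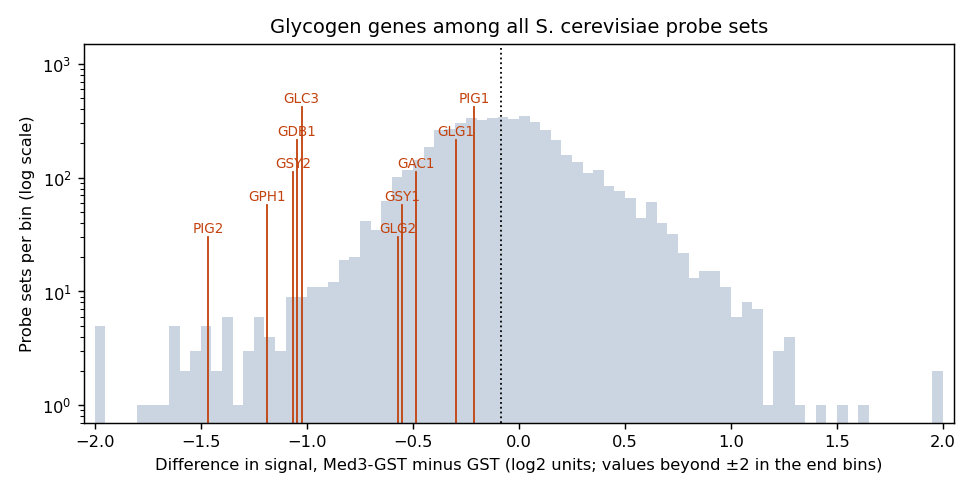
Number of S. cerevisiae probe sets (vertical axis, log scale) by difference in log2 signal, Med3-GST minus GST (horizontal axis, bins of 0.05), with the 10 glycogen genes marked and a dotted line at the median of all probe sets (-0.085). PIG2, GPH1, GSY2, GDB1 and GLC3 lie in the thin left tail, and GLG1 and PIG1 lie within the bulk.

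Within pairs of genes with related roles, the ratio of the signals was shifted on the Med3-GST arrays. A ratio of 2 signals on 1 array does not move with an offset of that array, so that 5 such ratios were compared between the groups. The log2 ratio of GSY2 to GSY1 was 1.89, 1.94 and 1.92 on the GST arrays and 1.40, 1.39 and 1.41 on the Med3-GST arrays. It thus changed by -0.52 (SD of 0.026 among the 3 GST arrays and 0.0065 among the 3 Med3-GST arrays), in that GSY2 lost more signal than GSY1. The ratio of GLG2 to GLG1 changed by -0.27, from -0.64 ± 0.06 to -0.91 ± 0.07 (SD, n = 3 each). The ratio of PIG1 to its relative GAC1 changed by 0.27, from -1.67 ± 0.04 to -1.40 ± 0.04 (SD, n = 3 each), in that PIG1 fell by less. PIG2 and GIP2, which form another related pair of putative Glc7 targeting subunits, changed by -0.60 in their ratio, from 2.69 ± 0.03 to 2.09 ± 0.06 (SD, n = 3 each). With background subtracted this change was -0.32. GIP2 was at 7.37, 7.40 and 7.49 with Med3-GST, all below the background mark, so that the size of this change is not settled. GPH1 over GDB1, the 2 enzymes of breakdown, changed by -0.14, from 2.08 ± 0.06 to 1.94 ± 0.06 (SD, n = 3 each). In all 5 pairs the ratios of the 2 groups did not overlap. How often this happens in other pairs of probe sets was not counted. Among single probe sets, 48.4% were apart in the lower direction alone, so that it may be common. Each gave p = 0.1 in an exact permutation test (two-sided, adjusted p = 0.1 over the 5 pairs), which is the smallest p that 3 arrays against 3 allow and cannot pass 0.05. With background subtracted, GPH1 over GDB1 gave p = 0.2 in the same exact test.

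**Figure D4:**
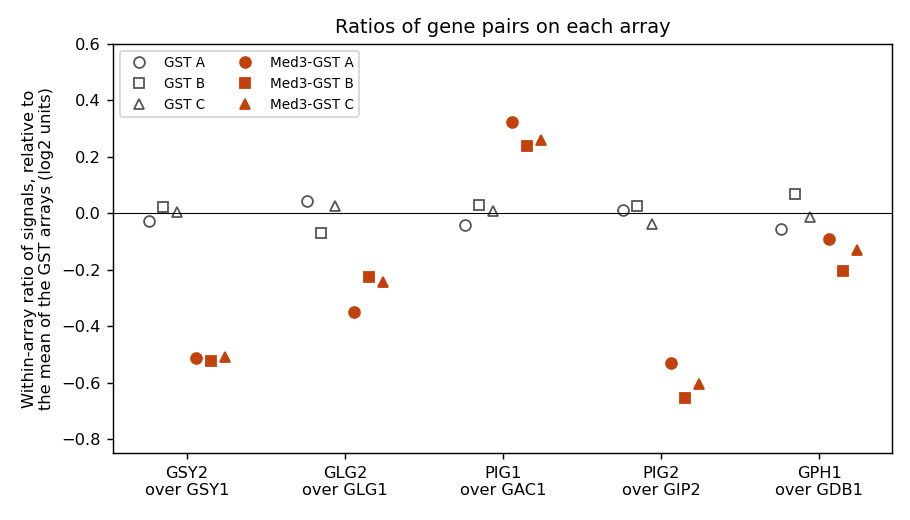
Log2 ratio of the signals of 2 genes on the same array, relative to the mean ratio of the 3 GST arrays (vertical axis), for 5 pairs (horizontal axis) on the 3 GST arrays (open) and the 3 Med3-GST arrays (filled). The ratio of GSY2 to GSY1 drops by 0.52 with little spread, PIG1 over GAC1 goes up by 0.27, and GPH1 over GDB1 shifts least, by -0.14.

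The genes that supply glucose 1-phosphate and UDP-glucose had differences between -0.61 and 0.02. In galactose medium carbon reaches glycogen through the galactose pathway (GAL1, galactokinase, GAL7, transferase, and GAL10, epimerase), while the phosphoglucomutases Pgm1 and Pgm2 connect glucose 1-phosphate with glucose 6-phosphate and Ugp1 makes UDP-glucose. Of these 6 genes 4 fell and none rose as deposited (limma; 0 also at an unadjusted p under 0.05), with a median difference of -0.19, beside 47.8% lower and 27.1% higher over all probe sets. After centring 3 were lower and 2 higher, which is close to the shares of 41.7% and 43.6% over all probe sets. PGM2 fell by 0.61, UGP1 fell by 0.40 and PGM1 fell by 0.26, and each of them was also lower after centring. GAL10 fell by 0.13 as deposited but did not pass the test after centring (-0.03). GAL1 and GAL7, with -0.02 and 0.02, did not pass the test as deposited, and after centring both were higher, by 0.08 and 0.11. GAL1, GAL7 and GAL10 had mean signals of 13.48 to 13.65 in both groups, above the other genes of this list. Whether signals this high still follow transcript levels was not tested. The study reported impaired GAL gene induction in Med3-overexpressing cells, from qPCR of the plasmid's transcript and from growth on galactose with antimycin A.

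All 5 genes listed here for Glc7 and some of its other partners fell, with a median difference of -0.70. Further partners of Glc7 were not in this list. GLC7 itself, which encodes the catalytic subunit, fell by 0.41 and GLC8, an activator of Glc7, by 0.70. REG1, a subunit that directs Glc7 in glucose repression, fell by 0.51, and its relative REG2 by 1.27, from 9.77, 9.67 and 9.69 with GST to 8.49, 8.37 and 8.46 with Med3-GST. GIP2 was at 8.33, 8.23 and 8.30 with GST and was not above the background mark on any Med3-GST array, so that its decrease has only a bound. As deposited, it was at least 1.73-fold lower when its Med3-GST signals were set to the mark (measured means of 8.29 with GST and 7.42 with Med3-GST). After centring, the measured difference was -0.77, for which no bound was worked out. None of the 5 was higher as deposited or after centring (limma; 0 also at an unadjusted p under 0.05), and all 5 were lower in both, beside 47.8% and 41.7% of all probe sets.

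Kinases that act on glycogen synthase, on Glc7 or upstream of them did not move as 1 group. Of the 16 genes measured, 12 fell, 1 rose and 3 did not pass the test, with a median difference of -0.26 and beside 47.8% lower and 27.1% higher over all probe sets. The cyclin gene PCL10, whose product directs the kinase Pho85 to glycogen synthase, fell by 0.72, whereas PCL8, which has the same role, had -0.07 and did not pass the test. TPK2, a catalytic subunit of protein kinase A, fell by 0.96, and TPK3 and the regulatory subunit BCY1, with -0.03 and 0.05, did not pass the test. The PAS kinase gene PSK1 fell by 0.59 and the Pho85 cyclin gene PCL6 by 0.56. GAL83, a beta subunit of the Snf1 kinase, was the 1 gene that rose, by 0.18. After centring, 10 fell and 3 rose (41.7% and 43.6% of all probe sets), with BCY1 (0.15) and TPK3 (0.06) joining GAL83, and with SNF1 (-0.05) and PSK2 (-0.01) no longer past the test.

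Of the 2 other genes of glycogen breakdown, IGD1, which encodes an inhibitor of Gdb1, fell by 0.32, and SGA1, the glucoamylase of sporulating cells, was at 0.03 and did not pass the test as deposited but was higher by 0.12 after centring. Over these 4 lists together, 22 of 29 measured genes fell and 1 rose, beside the 47.8% and 27.1% of all probe sets, and 1 of 29 was at least 2-fold lower, beside 1.2%. After centring 19 were lower and 6 higher, beside 41.7% and 43.6% of all probe sets.

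The other storage carbohydrate of yeast is trehalose, and its 7 genes also fell, with a median difference of -0.48 against -0.80 for the glycogen genes. TSL1, a large subunit of the synthase complex, fell by 1.24, which is close to GPH1. The synthase gene TPS1 and the phosphatase gene TPS2 each fell by 0.57, and the trehalase gene ATH1 by 0.48. The other trehalase gene NTH1 had the smallest difference, of -0.16, or -0.064 after centring. All 7 were lower and none higher under both scalings (limma; 0 higher also at an unadjusted p under 0.05), where 47.8% and 41.7% of all probe sets were lower. At least 2-fold lower were 1 of 7 trehalose genes and 5 of 10 glycogen genes as deposited, and 1 and 2 after centring, beside 1.2% and 0.891% of all probe sets. Whether the 2 lists differ was not tested.

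**Figure D5:**
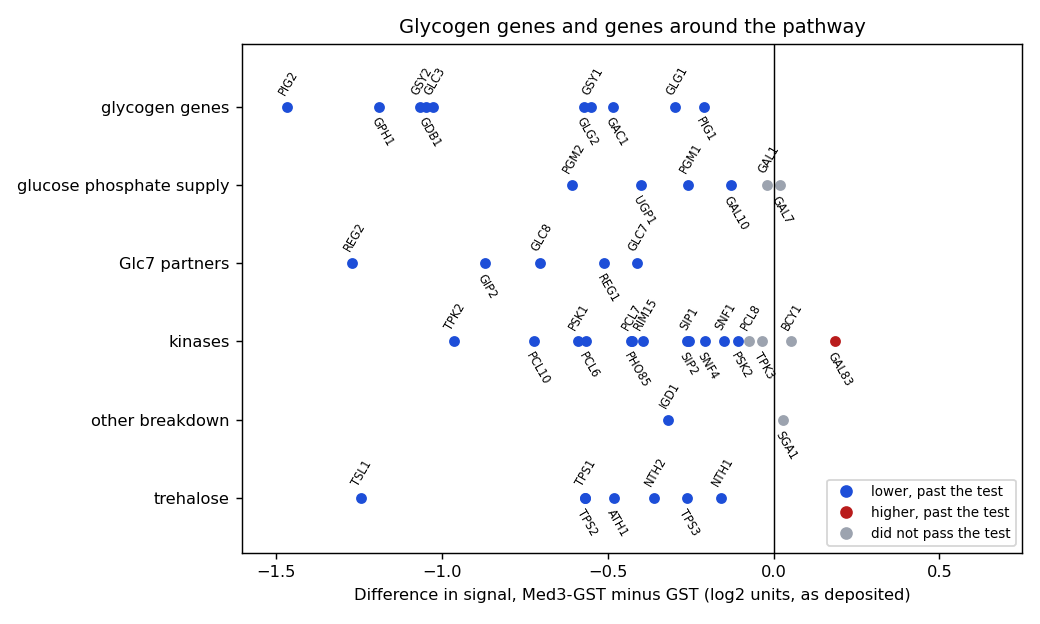
Difference in log2 signal as deposited, Med3-GST minus GST (horizontal axis), of the glycogen genes and of 5 lists of genes around the pathway (vertical axis), coloured by direction where limma's adjusted p was under 0.05. The glycogen genes reach from -1.47 to -0.21, GAL1 and GAL7 lie near 0, and GAL83 is the 1 gene past the test on the right.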

How the data were processed

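The authors deposited 1 log10 signal per probe set and array of Affymetrix Yeast Genome 2.0 Arrays. The study's methods name a normalization within each experiment ahead of its false discovery rates. Whether the deposited signals had been through it is not stated. The sources used here do not give the kind of normalization, the background correction or the probe summary. That the logarithm has base 10 follows from the signals it returns, which had at most 2 decimals in 100% of cells. Values were converted to log2 and otherwise used as deposited. Of 10928 probe sets, 5498 were listed for S. cerevisiae and tested, and 3683 had no gene listed. The other 1747 were listed with a gene not found among the S. cerevisiae genes and were taken as S. pombe. Their species was not checked further. The groups come from the overexpression label and were compared with limma 3.58.1 (R 4.3.3) by lmFit and eBayes, two-sided, with Benjamini-Hochberg adjustment over the 5498 probe sets and a threshold of 0.05. The 6 arrays limit the precision. The fit was also run on simulated data with known changes, without an offset between the groups and with independent noise for each probe set. As deposited, 50 of 50 changes of -0.5 passed the test, as did 4 of 5298 unchanged probe sets. This does not show how the fit behaves with an offset between the groups.

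The 10 genes and the lists around them were chosen with earlier results of these data known. All 10 are named, and of each list up to 4 genes past the test with the largest differences, with GIP2 as the relative of PIG2 and PGD1 as the check of the labels. SNF1, PSK2, PCL8, TPK3, BCY1, GAL1, GAL7, GAL83, GLC7, NTH1 and SGA1 were named after their values were seen. Gene names follow assembly R64, which changed 12 symbols of the array's table, and no coordinates are given. Alternatives were centring, quantile normalization, subtraction of the median S. pombe signal with a floor of 16 units, limma-trend, an unmoderated test, a filter on probe sets under the S. pombe mark, the replicate letter as a block and leaving out each array.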

Additional observations from a re-analysis of the deposited data

How the results depend on the processing

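All 10 glycogen genes were lower and none higher past limma's threshold under each alternative that was run, with the highest adjusted p = 0.0461 for PIG1 and 0.00719 for GLG1 (limma or the unmoderated test). The share of all probe sets past the test was counted only as deposited (47.8% lower, 27.1% higher) and after centring (41.7% lower, 43.6% higher). Counts under the other alternatives have no such share beside them. Each glycogen gene had 1 probe set, so that averaging probe sets changed nothing. The difference of PIG2 ranged from -1.49 to -1.36, that of GPH1 from -1.23 to -1.09 and that of PIG1 from -0.25 to -0.11. At least 2-fold lower were 5 genes as deposited, 2 after centring, and 3 after background subtraction with centring (PIG2 by 2.74-fold, GPH1 by 2.15-fold and GDB1 by 2.02-fold). The 5 ratios of gene pairs kept their direction in all 35 values. Of the supply and regulator genes, the number past the test and higher was 1 as deposited, 6 after centring, 4 after quantile normalization and 5 after background subtraction with centring, and 1 to 2 when an array was left out (2 without Med3-GST replicate B); the number lower was 19 to 23. Centring adds the same amount to every difference, which moves those near 0 upward. It also lowered the standard error, from 0.050 to a median of 0.0243.

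The letters A, B and C are in both groups' labels. Deviations of arrays with the same letter correlated at 0.029 to 0.062 over all probe sets, and those with different letters at -0.033 to -0.011. Each array thus correlated best with its own letter, though weakly by this measure. Deviations from a group mean sum to 0, so that the positive and the negative correlations are not independent. Offsets of whole arrays do not enter these correlations, and replicate B had the lowest median in both groups (9.99 with GST and 9.87 with Med3-GST). The main fit leaves the letter out. As a block it lowered the adjusted p of PIG1 as deposited from 5.10e-05 to 5.51e-10 (limma). Whether cultures with the same letter were handled together is not stated and was not tested. With the replicate block in the fit, 10 glycogen genes and 23 supply and regulator genes were lower and 0 and 1 higher. The share of all probe sets past the test in that fit was not counted.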

Other observations

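The genes next to the glycogen genes on the chromosomes (order of assembly R64) moved in both directions. Of 20 neighbours, 17 had a probe set, of which 9 fell, 6 rose and 2 did not pass the limma test (9, 7 and 1 after centring), beside 47.8% lower and 27.1% higher over all probe sets. Their median difference was -0.17 as deposited and -0.071 after centring, and no neighbour was 2-fold lower. UBC8, which encodes a ubiquitin-conjugating enzyme and lies beside GLC3, fell by 0.90, the most of the 17. SYC1, beside GAC1, fell by 0.71. GSY2 lies between YLR257W, which fell by 0.44, and HSP60, a mitochondrial chaperonin gene that rose by 0.27. DPM1, beside GDB1, rose by 0.37, and MET30, beside PIG2, by 0.28. These neighbours were named after their values were seen.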
